A study of Mus musculus with 8 samples.

Results

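The 8 genes Klf3, Klf6, Klf7, Klf9, Klf10, Klf11, Klf12 and Klf13 encode Krüppel-like factors (KLFs) other than the reprogramming factor KLF4. Their loci were compared between mouse embryonic fibroblasts (MEFs), MEFs during reprogramming and, as a separate culture, embryonic stem cells (ESCs). The genes were 8 of 21938 protein-coding genes in the annotation. A peak belonged to a locus when at least 1 bp of it overlapped the gene body or the 50 kb on either side (mm10). By this rule, 202 of 176445 peaks were members, and when the peaks of all lists were merged they formed 105 of 101701 regions. The assay was ATAC-seq, where a transposase cuts and tags accessible DNA, so that a peak marks a stretch with many such cuts. The groups were uninfected MEFs, MEFs infected with retroviruses for OCT4, SOX2, KLF4 and c-MYC (OSKM) plus a FLAG control vector and collected on day 5 or day 10, and ESCs. The infected cells were grown in ESC medium that contained vitamin C and were labelled wildtype. Per the labels, the strain of the MEFs, the infected cells and ESC replicate 2 was C57BL/6J-OG2, which carries a GFP reporter driven by Pou5f1 sequence, and that of ESC replicate 1 was C57Bl6J. The labels put the ESCs on feeder cells in serum and LIF, whereas the methods describe gelatin and 2i/L medium. Medium and cell type therefore cannot be told apart in any comparison with ESCs. The paper describes its feeder cells as treated MEFs, and whether such cells added to the ESC list was not tested. Per its methods, MEFs were maintained in a different medium from that of reprogramming. Between MEFs and either OSKM day, the factors, infection, medium, vitamin C and time in culture cannot be told apart.

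KLFs are transcription factors with C2H2 zinc fingers near the carboxyl end, which bind GC-rich and CACCC sequences, the sites that SP factors also bind. The family divides by what the rest of the protein recruits. KLF3 and KLF12 are repressors that bind the corepressor CtBP. KLF6 and KLF7 are close relatives that mostly activate transcription. KLF9 and KLF13 are short proteins that recruit SIN3. KLF10 and KLF11 are induced by TGF-beta and also recruit SIN3. KLF2, KLF4 and KLF5, which are known for their part in naive pluripotency, are not among the 8 genes.

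The following stretches carry the differences between lists described below. Each is the central 300 bp of a merged region, on the plus strand of the GRCm38.p6 genome, with matches to the searched motifs in capitals, and none overlapped an annotated exon. First are a Klf12 intron region and a region upstream of Klf6 that had a peak in MEFs and in no other list, where the capitals mark the AP-1 words TGAGTCA and TGACTCA. The Klf12, Klf6, Klf7 and Klf9 stretches were chosen after their values were seen.
Klf12 chr14:100247393-100247692: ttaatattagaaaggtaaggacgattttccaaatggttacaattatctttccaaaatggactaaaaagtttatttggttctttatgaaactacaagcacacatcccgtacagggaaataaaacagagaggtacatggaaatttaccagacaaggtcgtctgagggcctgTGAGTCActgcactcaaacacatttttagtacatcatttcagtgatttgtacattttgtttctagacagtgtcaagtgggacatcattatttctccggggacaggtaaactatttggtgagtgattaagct
Klf6 chr13:5837322-5837621: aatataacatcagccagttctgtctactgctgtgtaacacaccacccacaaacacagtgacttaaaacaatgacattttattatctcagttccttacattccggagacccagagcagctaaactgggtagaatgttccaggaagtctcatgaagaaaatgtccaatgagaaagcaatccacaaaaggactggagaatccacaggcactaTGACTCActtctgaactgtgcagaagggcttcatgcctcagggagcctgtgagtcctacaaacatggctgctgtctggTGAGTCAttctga
The next stretch lies upstream of Klf7 in a region with peaks on both OSKM days and in neither MEFs nor ESCs, and the capitals mark the octamer word ATGCAAAT, to which OCT4 binds.
Klf7 chr1:64143037-64143336: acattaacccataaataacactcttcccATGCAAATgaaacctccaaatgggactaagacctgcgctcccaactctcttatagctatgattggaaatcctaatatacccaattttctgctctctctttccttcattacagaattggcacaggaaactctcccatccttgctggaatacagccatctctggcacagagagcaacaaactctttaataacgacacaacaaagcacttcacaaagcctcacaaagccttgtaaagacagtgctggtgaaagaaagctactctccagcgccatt
The regions upstream of Klf13 and downstream of Klf10 were the 2 of 105 (1.90%, against 2.31% of all regions) with peaks on both days and in ESCs but not in MEFs, and their central stretches held none of the motifs.
Klf13 chr7:63986608-63986907: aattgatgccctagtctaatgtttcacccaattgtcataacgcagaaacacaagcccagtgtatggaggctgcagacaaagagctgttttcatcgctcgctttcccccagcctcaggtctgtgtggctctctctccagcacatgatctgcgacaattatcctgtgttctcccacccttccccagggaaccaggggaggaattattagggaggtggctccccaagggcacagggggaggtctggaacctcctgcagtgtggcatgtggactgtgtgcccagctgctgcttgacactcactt
Klf10 chr15:38247726-38248025: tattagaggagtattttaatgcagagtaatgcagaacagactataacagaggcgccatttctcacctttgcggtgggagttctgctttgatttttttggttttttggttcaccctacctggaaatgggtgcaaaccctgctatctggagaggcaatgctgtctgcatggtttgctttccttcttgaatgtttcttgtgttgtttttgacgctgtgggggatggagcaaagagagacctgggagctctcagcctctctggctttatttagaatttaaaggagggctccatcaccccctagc
The Klf9 intron region, with peaks on day 10 and in ESCs, held the most KLF words of the ESC-specific regions, and its capitals mark 4 matches to CCCCACCC, of which 3 overlap in a row.
Klf9 chr19:23152190-23152489: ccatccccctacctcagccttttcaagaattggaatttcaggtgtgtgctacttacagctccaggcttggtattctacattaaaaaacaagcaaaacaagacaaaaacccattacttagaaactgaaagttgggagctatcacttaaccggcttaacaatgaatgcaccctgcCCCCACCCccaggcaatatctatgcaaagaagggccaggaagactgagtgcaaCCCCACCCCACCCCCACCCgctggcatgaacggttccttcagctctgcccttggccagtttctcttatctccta
The last stretch, read on the minus strand in the direction of transcription, comprises the 200 bp before the second of the annotated Klf7 start sites, and its capitals mark 3 KLF words (GGGTGGGG, the reverse complement of CCCCACCC). It was covered over all 200 bp in ESCs, over 95 bp in MEFs, over 47 bp on day 5 and over 99 bp on day 10.
Klf7 chr1:64121492-64121691: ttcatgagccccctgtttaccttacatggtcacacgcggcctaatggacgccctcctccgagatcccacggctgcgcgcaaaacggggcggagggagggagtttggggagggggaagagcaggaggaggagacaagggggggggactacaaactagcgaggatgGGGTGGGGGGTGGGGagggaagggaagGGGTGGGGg

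Each group had 2 libraries but 1 deposited list, which appears to hold the parts of replicate 1 peaks that replicate 2 also covered. The number of reads was not available and the lists had 56514 peaks in MEFs, 36219 on day 5, 35226 on day 10 and 48486 in ESCs, so list length and depth cannot be told apart. With 1 list per group no difference between groups could be tested, and every interval below is a 95% Wilson interval that covers counting error only. As a check of the labels, 5 fibroblast genes (Prrx1, Twist2, Col1a1, Col3a1, Pdgfra) had 37 peaks in MEFs and 13 in ESCs, and a start-site peak at 5 and 1 of them. Pdgfra went the other way, with 2 peaks in MEFs and 5 in ESCs and a start-site peak in every list. The 5 ESC genes Nanog, Esrrb, Dppa4, Zfp42 and Tfcp2l1 had 13 peaks in MEFs and 48 in ESCs, and a start-site peak at 2 and 5 of them. On both OSKM days, 1 of these 5 ESC genes had a start-site peak.

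The 8 loci together held 51 peaks in MEFs, 43 on day 5, 45 on day 10 and 63 in ESCs. As a share of the list this was 0.0902% in MEFs (0.0686% to 0.119%), 0.119% on day 5 (0.0882% to 0.160%), 0.128% on day 10 (0.0955% to 0.171%) and 0.130% in ESCs (0.102% to 0.166%), and these intervals overlap. With every list held to its 35226 highest-scoring peaks, the counts were 34, 43, 45 and 49, so MEFs then had the fewest and ESCs the most. No intervals were computed for these counts, so this order may lie within counting error. A listed peak does not tell whether few cells were open at a site or all of them weakly. Within these loci, the larger ESC count came from peaks away from start sites. Peaks off every annotated start site numbered 35 in MEFs, 30 on day 5, 32 on day 10 and 52 in ESCs, whereas 16, 13, 13 and 11 peaks overlapped a start site of any gene. Of the 52 ESC peaks off start sites, 22 lay in the gene body, 16 upstream and 14 downstream. The share of each whole list off every start site was not computed, so these counts have no background. In the whole lists, 13054 of 56514 MEF peaks and 11969 of 48486 ESC peaks overlapped a protein-coding start site.

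More peaks in ESCs than in MEFs were found at 6 of the 8 genes, against 35.6% of all protein-coding genes. The reverse held at 1 gene, Klf6, against 42.2% of all genes, and Klf10 had 5 peaks in both lists. Held to equal length, ESCs still had more peaks than MEFs at 6 genes, but Klf11 then had 5 in MEFs and 4 in ESCs, while Klf10 had 2 and 4. MEFs had more peaks than day 5 at 6 of 8 genes, against 63.2% of all genes, and at 2 of 8 at equal length. More peaks on day 10 than on day 5 were found at 3 genes (Klf7, Klf10 and Klf13), against 33.0% of all genes. ESCs exceeded day 10 at 7 of 8 genes, against 55.8% of all genes, and at 4 of 8 at equal length. The shares of all genes are from the full lists. They were not computed at equal length, so the equal-length counts have no background.

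**Figure D1:**
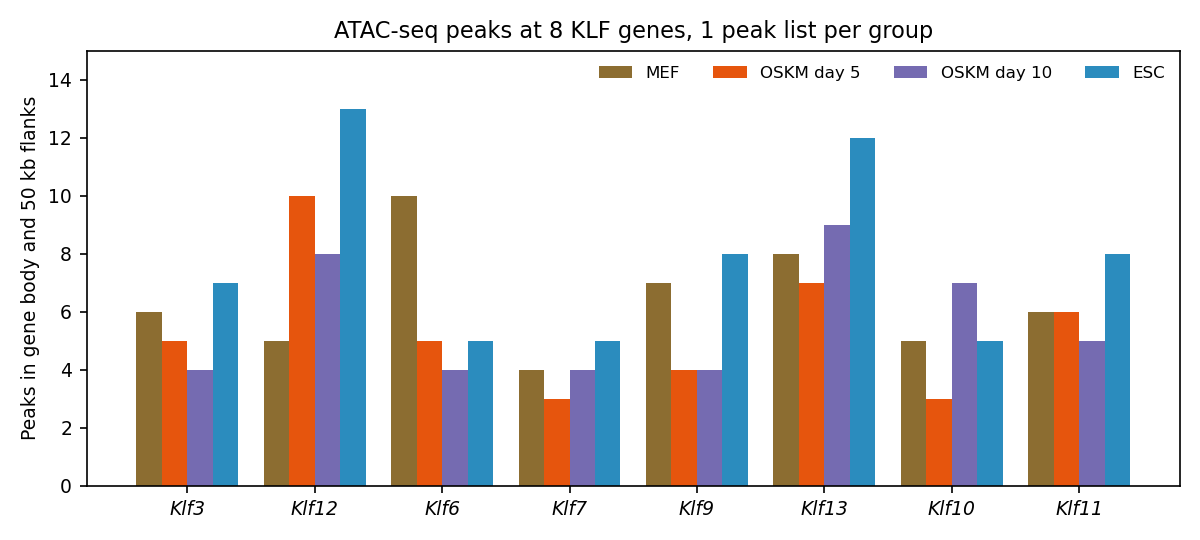
Number of ATAC-seq peaks (y axis) in the gene body and 50 kb flanks of each of the 8 KLF genes (x axis) in the 4 lists, 1 bar per list with no replicate error. Klf12 has 5 peaks in MEFs and 13 in ESCs, and Klf6 has 10 in MEFs and 5 in ESCs.

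Start sites were covered at nearly all of these genes in every list. All 8 genes had a peak over at least 1 annotated start site in MEFs, on day 5 and on day 10, and 7 of 8 had one in ESCs. The share of all protein-coding genes with such a peak was 60.0% in MEFs, 52.1% on day 5, 56.0% on day 10 and 55.8% in ESCs. In all 4 lists, 7 of the 8 KLF genes had one (87.5%, 52.9% to 97.8%), against 46.8% of all genes. These shares were not adjusted for the number of annotated start sites per gene. The exception was Klf12, whose ESC peak of 1494 bp (chr14:100285148-100286641) ended 469 bp upstream of the first start site. The MEF, day 5 and day 10 peaks there spanned 3064, 2596 and 3126 bp and covered the first start site and the others close by. Restricting the lists to equal length or to a −log10 q-value of at least 2 gave 8, 8, 8 and 7 genes again, whereas counting peaks within 500 bp of a start site gave 8 in every list. Of 34 distinct annotated start sites of the 8 genes, 13 were covered in all lists, 10 in none and 11 in some.

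The width and fold of the start-site peaks differed between genes. At Klf12, Klf13 and Klf10 the peak over the first start site was between 2408 and 3267 bp wide where present, wider than at least 95.7% of all start-site peaks of the list. Its fold enrichment, the authors' ratio of signal to background, probably belongs to the whole replicate 1 peak. The fold was low at these genes, from 2.39 to 3.38. The list medians were 3.82 in MEFs, 3.91 on day 5, 3.63 on day 10 and 3.80 in ESCs. Klf7 and Klf11 lay at the other end, with folds of 4.14 to 5.25 that exceeded the median in every list. The other 3 genes, Klf3, Klf6 and Klf9, lay below the median in every list, at 2.72 to 3.62. Thus 6 of 8 start-site peaks were below the median fold in MEFs, on day 5 and on day 10, and 5 of 7 in ESCs. How the folds were scaled between lists is not given in the sources used here, so they were compared within a list only.

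**Figure D2:**
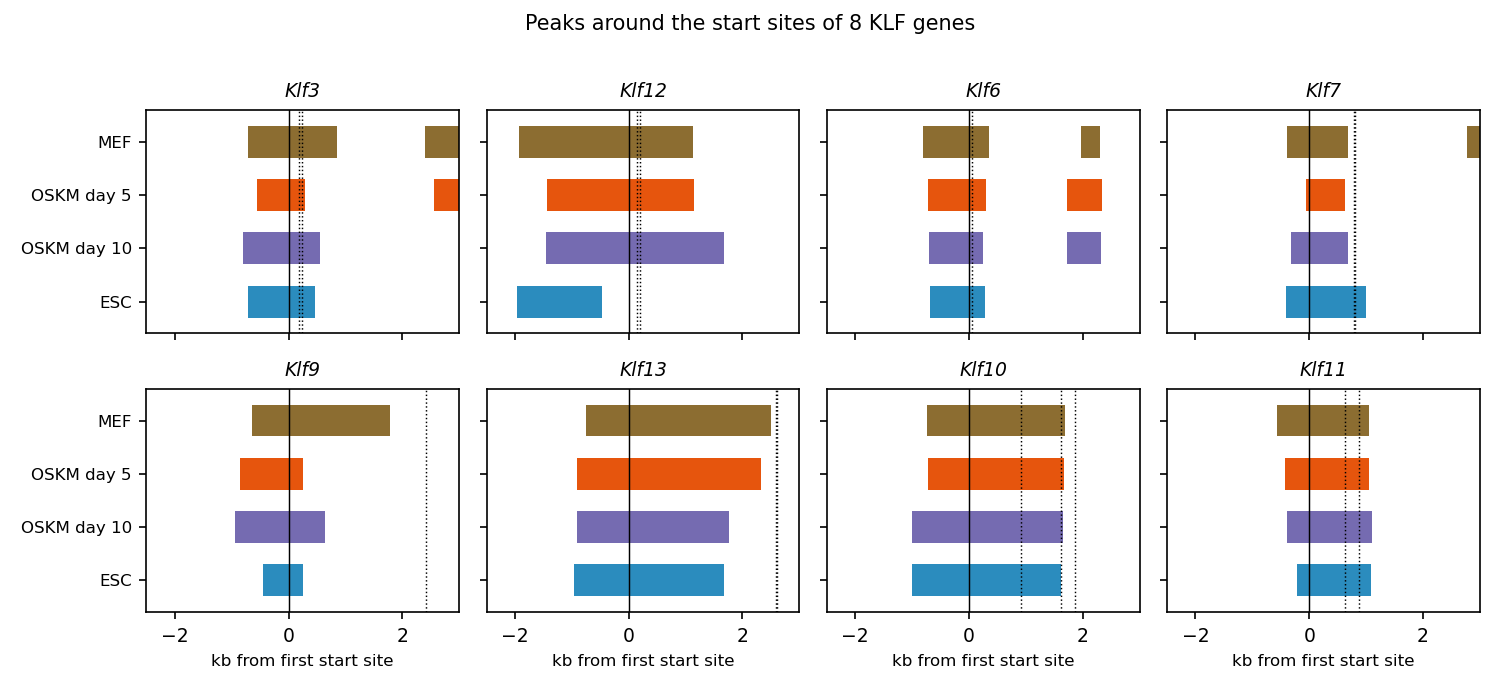
Extent of the peaks within 2.5 kb upstream and 3 kb downstream of the first start site of each gene (x axis, kb along the direction of transcription), 1 row per list. The solid line is the first start site and dotted lines are further annotated ones. The ESC bar of Klf12 stops 469 bp before the solid line, and only the ESC bar of Klf7 reaches the dotted lines.

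Klf3 (ENSMUSG00000029178.14, chr5:64803388-64832901, plus strand) had 6 peaks in MEFs, 5 on day 5, 4 on day 10 and 7 in ESCs. The peak over the first start site was 1571 bp in MEFs, 840 bp on day 5, 1355 bp on day 10 and 1179 bp in ESCs, with folds of 2.96, 3.20, 2.80 and 3.19. Another group of start sites, in a region centred 9.01 kb downstream, was covered in MEFs, on day 5 and on day 10 by peaks of 2118, 1329 and 1491 bp. In ESCs the peak there was 886 bp wide and stopped 53 to 98 bp short of them, and it was the widest ESC peak off start sites at this gene. Upstream of Klf3 the lists separated fully, since 3 regions there had a peak in ESCs and no region had one in any other list. They lay 38.7, 15.0 and 5.57 kb from the start site with folds of 3.40, 3.48 and 3.72. All 3 overlapped another annotated gene, Gm20033, which has a start site in the region over the first Klf3 start site. Downstream, a region 61.6 kb from the start site had peaks on day 10 (fold 3.13) and in ESCs (fold 3.42). A neighbour at 63.8 kb had peaks in MEFs (fold 4.80, 1312 bp) and on day 5 (fold 2.67, 477 bp), the widest off-start peak on day 5. The widest ones in MEFs and on day 10, of 1550 and 1036 bp, belonged to a region 74.5 kb downstream that had a peak in every list. Klf3 was the only one of the 8 genes with no transient region.

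Klf12 (ENSMUSG00000072294.5, chr14:99870632-100284679, minus strand) is the longest of the genes, at 414048 bp, and held 5 peaks in MEFs, 10 on day 5, 8 on day 10 and 13 in ESCs. The counts on day 5 and in ESCs exceeded those of 97.9% and 98.1% of all genes in the same list, and the MEF count exceeded 47.2%. Such ranks, here and at the genes below, compare raw counts and are not adjusted for window length. The Klf12 window spanned 514048 bp, whereas the median length of a protein-coding gene was 17425 bp before the flanks were added. At equal list length the counts were 2, 10, 8 and 8, so MEFs remained lowest while ESCs no longer exceeded day 5. Peaks in 2 or more lists were found in 7 of its 25 regions (28.0%), against 37.1% of all regions. Of the 25, 11 were ESC-specific, 9 transient, 3 MEF-specific and 2 common. The widest region without a MEF peak spanned 1399 bp, 309 kb into the gene, with peaks on day 5 (fold 3.56) and day 10 (fold 2.94), and it held the widest off-start peak on both days. In ESCs the widest was a 1059 bp peak 229 kb into the gene (fold 3.20), and another of 988 bp lay 29.4 kb upstream (fold 3.73). A pair of sites stood out by fold. The MEF peak 37.1 kb into the gene, printed above with its AP-1 word, had a fold of 7.12, the highest of the MEF list at these loci, and neither OSKM day nor ESCs had a peak there. The day 5 peak 167 kb into the gene had a fold of 5.91, the highest of that list at these loci, and the day 10 list also had a peak there. The widest off-start peak in MEFs was 806 bp, 211 kb into the gene (fold 2.90). A transient region 71.6 kb into the gene (folds 4.77 and 4.15) covered the start site of 4930517O19Rik, a gene annotated inside Klf12. The internal start site at position 99943708 lay within a 2102 bp MEF peak and 521 to 675 bp from the peaks of the other lists. The start site at 100149764 lay 21640 bp from the nearest peak of any list.

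Klf6 (ENSMUSG00000000078.7, chr13:5861482-5870394, plus strand) had 10 peaks in MEFs, 5 on day 5, 4 on day 10 and 5 in ESCs, the only gene of the 8 with more in MEFs than in ESCs by this window and the full lists. Klf3 joined it with gene bodies alone (3 against 2) or 10 kb flanks (4 against 3), Klf7 with 100 kb flanks (8 against 6) and Klf11 with a −log10 q-value of at least 2 (6 against 5). The MEF count exceeded that of 90.3% of genes and the ESC count that of 51.4%. At equal list length the counts were 9, 5, 4 and 5. The peak over the first start site was 1157, 1022, 950 and 964 bp wide in the 4 lists, in the order MEF, day 5, day 10 and ESC, with folds of 2.78, 2.72, 3.44 and 3.62. Of its 14 regions, 8 were MEF-specific. The one with the highest fold lay 24.0 kb upstream (fold 6.11) and had 2 AP-1 words, and no peak was listed there on either OSKM day. By contrast, the 3′ end of the gene kept its peaks until day 10. A region 9.32 kb from the start site that overlapped 716 bp of annotated UTR carried the widest off-start peak in MEFs (1848 bp), on day 5 (2188 bp) and on day 10 (2212 bp), with folds of 2.39, 3.22 and 2.80, and no peak in ESCs. Another region inside the gene, at 2.03 kb, likewise had peaks in MEFs and on both days. ESCs had peaks of their own at 3 sites. They lay 38.5 kb downstream (1506 bp, fold 4.40), 17.4 kb downstream (fold 3.40) and 29.3 kb upstream (fold 3.12). The widest ESC peak off start sites, of 1688 bp, lay in a region 16.6 kb upstream with a peak in every list.

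Klf7 (ENSMUSG00000025959.13, chr1:64029447-64122282, minus strand) had 4 peaks in MEFs, 3 on day 5, 4 on day 10 and 5 in ESCs, the smallest total of the 8 genes. The peak over the first start site had folds of 4.22, 4.79, 4.38 and 5.18 and widths of 1082, 691, 1002 and 1413 bp. The ESC peak was the only one that extended over the other 2 start sites, 791 and 800 bp downstream, which lay 102 to 163 bp outside the peaks of the other lists. The 300 bp RefSeq promoter window, which overlaps these start sites, was covered over 300 bp in ESCs, 43 bp in MEFs, 47 bp on day 10 and 0 bp on day 5. Away from the start site, the region 20.9 kb upstream with the octamer word was the widest off-start peak on both OSKM days, at 662 bp (fold 5.17) on day 5 and 787 bp (fold 4.49) on day 10. In MEFs the widest was 1061 bp, 33.7 kb into the gene (fold 3.98), a region that also had a peak in ESCs (fold 3.24) but on neither OSKM day. In ESCs it was 888 bp, 42.6 kb into the gene (fold 3.26), and it overlapped 69 bp of coding exon. A region at 83.8 kb had peaks on day 10 (fold 2.75) and in ESCs (fold 3.23).

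Klf9 (ENSMUSG00000033863.2, chr19:23141226-23168134, plus strand) had 7 peaks in MEFs, 4 on day 5, 4 on day 10 and 8 in ESCs. The peak over the start site was 2421 bp in MEFs, 1120 bp on day 5, 1580 bp on day 10 and 709 bp in ESCs, with folds of 2.81, 3.16, 2.80 and 3.08, so it was narrowest in ESCs. The ESC peak was instead the widest in a region 6.35 kb upstream, over the start site of 2410080I02Rik, where the peaks were 2077 bp in MEFs, 2381 bp on day 5, 2640 bp on day 10 and 3874 bp in ESCs. Of 13 regions, 5 were ESC-specific. The widest of them, the intron region 11.1 kb from the start site with the KLF words, had a day 10 peak of 738 bp (fold 2.94), the widest off-start peak of that day, and an ESC peak of 1227 bp (fold 3.71). The next were 1331 bp wide at 34.8 kb (fold 3.01) and 932 bp wide at 28.3 kb (fold 3.82), and both were in ESCs alone. The widest off-start peak in MEFs was 936 bp, 61.4 kb downstream (fold 3.44), and in no other list. At day 5 it was 396 bp, 49.6 kb upstream (fold 3.42), in a region with peaks also in MEFs and on day 10.

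Klf13 (ENSMUSG00000052040.10, chr7:63886351-63938915, minus strand) had 8 peaks in MEFs, 7 on day 5, 9 on day 10 and 12 in ESCs, and the counts on day 5, on day 10 and in ESCs exceeded those of 89.5%, 94.9% and 97.3% of genes. At equal list length the counts were 3, 7, 9 and 10. The start-site peak was 3267, 3244, 2669 and 2630 bp wide, with folds of 2.49, 2.80, 2.48 and 3.17. An internal start site at position 63924870 was covered in MEFs, and lay 74 bp from the nearest peak on day 10, 420 bp on day 5 and 1200 bp in ESCs. The widest off-start peak in MEFs was 2555 bp (fold 2.43) and lay within the 3′ UTR. At day 5 and in ESCs the widest was in the same region 18.5 kb upstream, at 965 bp (fold 4.73) and 1137 bp (fold 4.02). At day 10 it was 1812 bp (fold 3.05), 26.6 kb into the gene. Of 7 regions without a MEF peak, the widest was 718 bp in an intron, in ESCs alone (fold 2.58). Another, 26.5 kb upstream, had peaks on both OSKM days alone (folds 4.38 and 3.77). The third, 47.8 kb upstream, had peaks on day 5 (fold 3.97), on day 10 (fold 3.63) and in ESCs (fold 2.84).

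Klf10 (ENSMUSG00000037465.10, chr15:38291463-38300706, minus strand) had 5 peaks in MEFs, 3 on day 5, 7 on day 10 and 5 in ESCs. Its day 10 count exceeded that of 85.5% of genes, but with the threshold on the −log10 q-value of at least 2 the counts were 4, 2, 3 and 5. Of the 7 day 10 intervals, 2 (364 and 19 bp) carried the same peak name, so they came from 6 called peaks. The start-site peak was 2436, 2408, 2665 and 2631 bp wide, with folds of 2.64, 2.78, 2.43 and 3.38. It covered the start sites at 0 and 911 bp in every list, whereas the one 1624 bp downstream lay 3 bp outside the ESC peak. No peak off start sites lay in the gene body. The widest in MEFs and ESCs, of 1313 and 1564 bp, shared a region 17.4 kb downstream (folds 2.99 and 3.64). The widest on the OSKM days shared the region 52.8 kb downstream, with 563 bp on day 5 (fold 4.04) and 500 bp on day 10 (fold 3.63), where ESCs also had a peak (fold 2.71). Another region without a MEF peak, 12.5 kb upstream, was in ESCs alone (577 bp, fold 3.26). A region 36.6 kb downstream had a peak on day 10 alone (383 bp, fold 2.87).

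Klf11 (ENSMUSG00000020653.12, chr12:24651274-24662789, plus strand) had 6 peaks in MEFs, 6 on day 5, 5 on day 10 and 8 in ESCs, and 6 of its 10 regions were common to MEFs and ESCs. The start-site peak covered all 3 start sites in every list, with widths of 1616, 1467, 1492 and 1297 bp and folds of 4.44, 4.17, 4.14 and 5.25. Other peaks present in every list covered the start sites of Cys1, 29.5 kb downstream, and of Rrm2, which encodes a subunit of ribonucleotide reductase, 56.7 kb downstream. The widest off-start peaks in MEFs and on day 5 were 940 bp (fold 3.63) and 630 bp (fold 3.34) in a region 46.1 kb downstream. At day 10 the widest was 492 bp, 59.3 kb downstream (fold 2.50), and in ESCs 568 bp, 50.3 kb upstream (fold 3.11), at the edge of the window. The ESC-specific regions were 359 bp wide at 36.5 kb upstream (fold 2.79) and 220 bp wide at 16.9 kb upstream (fold 2.58). The 359 bp region and the region 50.3 kb upstream overlapped another annotated gene, Grhl1, whereas the 220 bp region overlapped no other gene. The window had no region with peaks on both OSKM days alone.

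**Figure D3:**
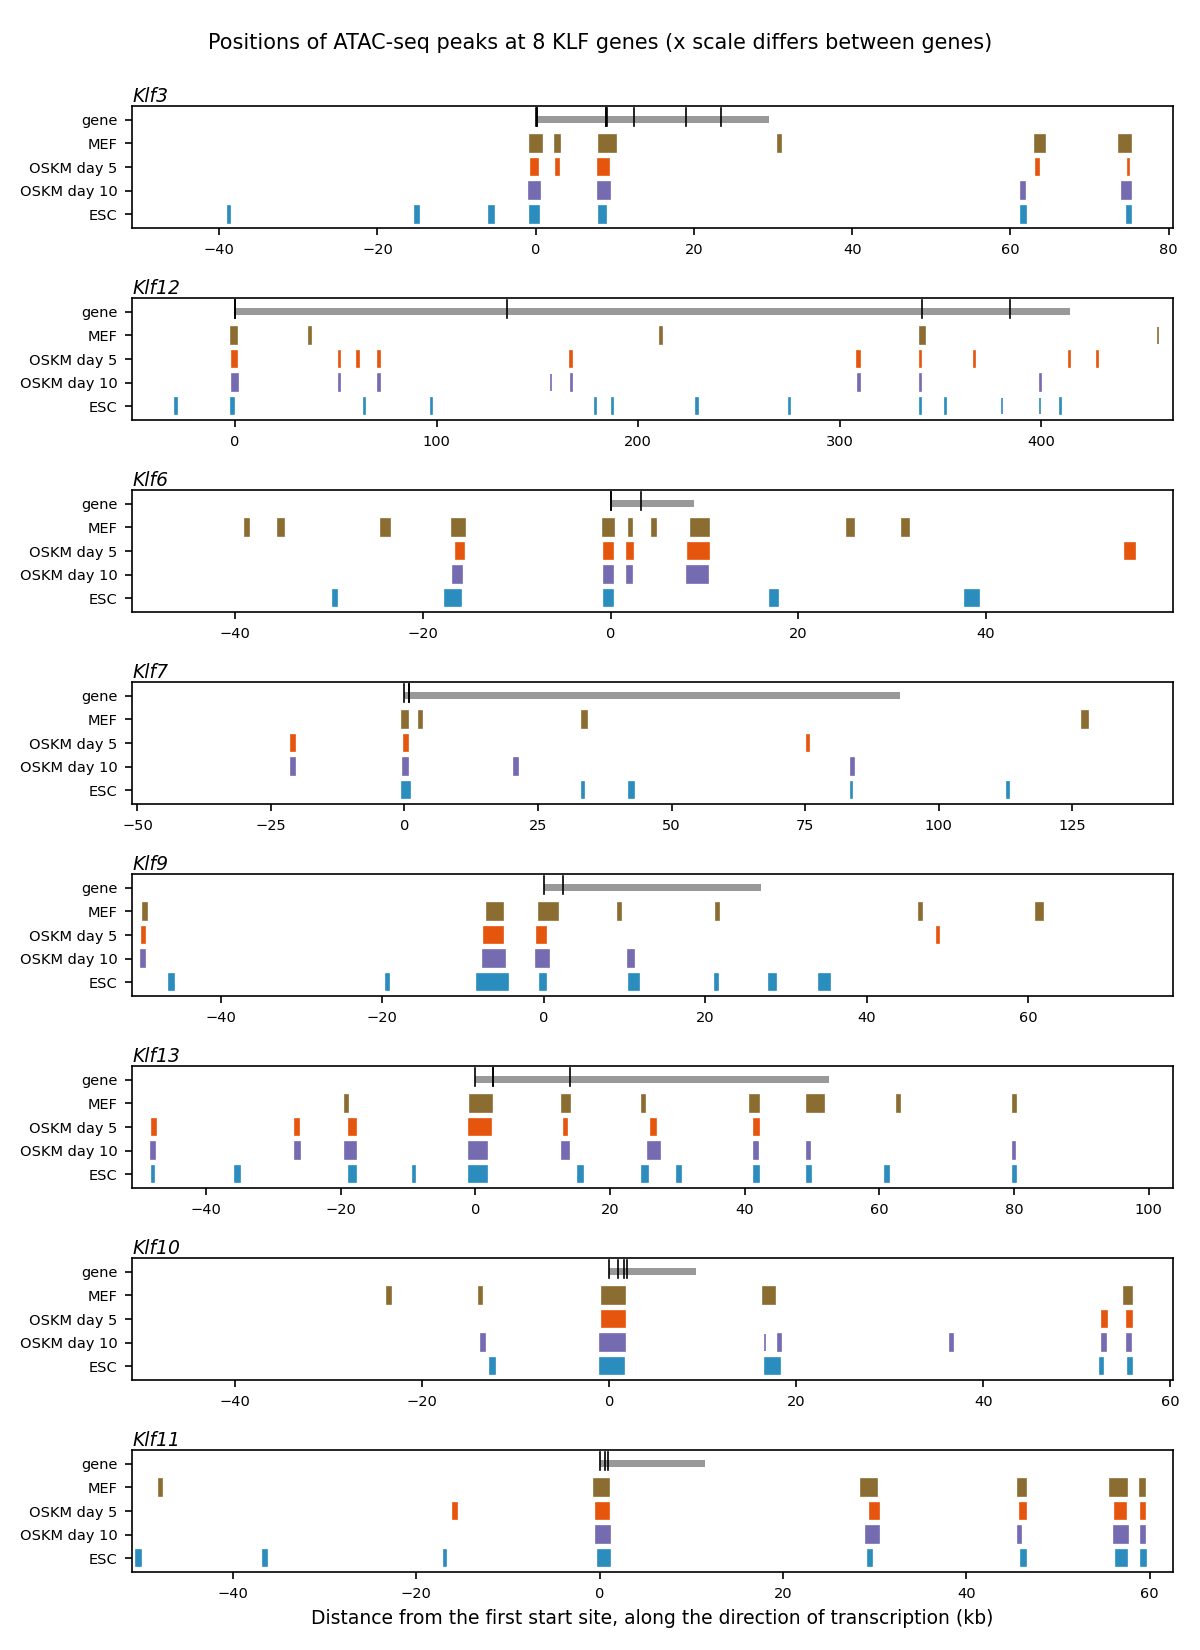
Peaks of the 4 lists (coloured rows) along each locus by distance from the first start site in the direction of transcription (x axis, kb, scale differs between genes). The grey bar is the gene and black ticks are annotated start sites. Every list has a peak at or next to 0 kb, and ESC peaks without a counterpart above them lie upstream of Klf3, along Klf12 and on both sides of Klf13.

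Merged regions were classed by the lists in which they had a peak. MEF-specific regions, with a peak in MEFs and not in ESCs, made up 25 of the 105 (23.8%, 16.7% to 32.8%), against 36.4% of all regions. ESC-specific regions, the reverse, made up 36 (34.3%, 25.9% to 43.8%), against 28.4%. Common regions made up 27 (25.7%, 18.3% to 34.8%), against 19.1%. Transient regions, with a peak on an OSKM day and in neither MEFs nor ESCs, made up 17 (16.2%, 10.4% to 24.4%), against 16.1%. With all 8 windows, the 36.4% of all regions lay above the counting interval of the MEF-specific share, and the other backgrounds lay within theirs. Klf12 supplied 9 of the 17 transient and 11 of the 36 ESC-specific regions. Without its window (a choice made after seeing the data), the MEF-specific share was 27.5% (22 of 80, 18.9% to 38.1%), and 8 regions were transient (10.0%, 5.15% to 18.5%). The common and the ESC-specific shares were then both 31.2% (25 of 80, 22.2% to 42.1%). The 36.4% of all regions thus fell within the MEF-specific interval, and the 19.1% fell below the common one, so neither reading held in both versions.

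All 8 windows held a MEF-specific region and all 8 an ESC-specific one, against 75.1% and 75.8% of all protein-coding genes, and 7 held a transient region, against 47.8%. These windows include whole genes and are of unequal length, so the shares are not adjusted for the number of bp. A start site of some gene was overlapped by 14 of the 27 common regions (51.9%), against 63.9% of all common regions. It was overlapped by 2 of 25 MEF-specific regions (all regions of the class 6.07%), 1 of 17 transient (2.34%) and 0 of 36 ESC-specific regions (5.36%), so the common class had the highest share both at the KLF loci and over the genome.

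**Figure D4:**
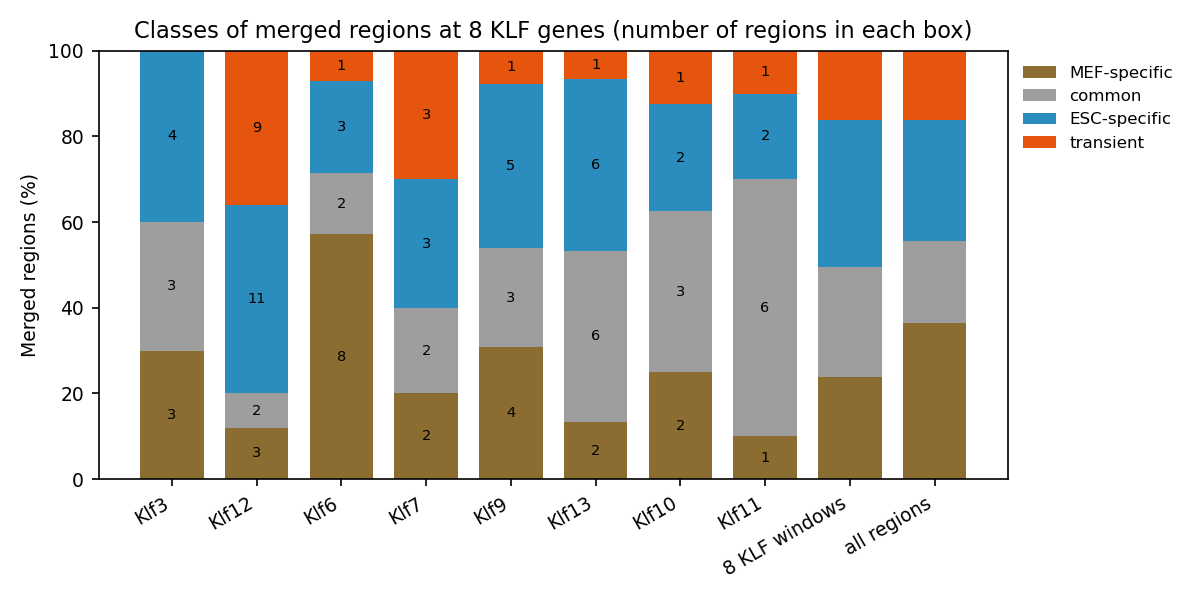
Share of merged regions (y axis, %) in each class for each KLF gene, for the 8 windows together and for all regions of the genome, with the number of regions in the boxes of the genes. MEF-specific regions make up 8 of 14 at Klf6, transient regions 9 of 25 at Klf12 and common regions 6 of 10 at Klf11.

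Few ESC-specific regions had a listed peak on the OSKM days, at these loci as over all regions. At day 5, 2 of 36 had a peak (5.56%, 1.54% to 18.1%), against 10.7% of all ESC-specific regions, and on day 10, 6 of 36 did (16.7%, 7.87% to 31.9%), against 12.6%. The 2 on day 5, near Klf13 and Klf10, both had a peak on day 10 as well. The 4 that had one on day 10 and not on day 5 lay downstream of Klf3, in Klf12, in Klf7 and in Klf9. Of the 25 MEF-specific regions, 6 had a peak on day 5 (24.0%, 11.5% to 43.4%), against 14.2%, and 5 on day 10 (20.0%, 8.86% to 39.1%), against 14.8%. Those with a peak on both days were 4, of which 2 lay in Klf6, 1 upstream of Klf9 and 1 in Klf13. All 4 of these backgrounds lay within the counting intervals of the KLF loci.

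Motif words were counted on both strands in the central 300 bp of each region, with overlapping matches counted. The KLF words were CCACACCC, CCACGCCC, CCCCACCC and CCCCGCCC. At least 1 lay in 14 of the 36 ESC-specific regions of the KLF loci (38.9%, 24.8% to 55.1%), against 14.7% of all ESC-specific regions. The mean GC content of these windows was close, at 48.0% for the KLF loci and 47.3% for all ESC-specific regions, but repeat-masked sequence made up 16.1% and 26.4%, and the part of either in the KLF word share was not tested. The 14 regions were spread unevenly, with 5 of 6 ESC-specific regions at Klf13 and 3 of 4 at Klf3, but 2 of 11 at Klf12 and 0 of 3 at Klf6. Klf9, Klf7, Klf10 and Klf11 had 1 each. Of the 14, 11 had a peak in ESCs alone and 3 also on day 10, and 7 lay upstream, 5 in introns and 2 downstream of the gene. Other window widths, chosen after seeing the data, gave 25.0% against 10.2% in 200 bp, 41.7% against 22.3% in 500 bp and 47.2% against 25.5% in the whole region. Without the Klf13 window the share was 30.0% (9 of 30). SP factors bind the same words, and a match is a description and not a bound site.

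In the other classes the KLF words lay in 2 of 25 MEF-specific (all regions 10.1%), 6 of 27 common (22.2%, all regions 28.8%) and 2 of 17 transient regions (11.8%, all regions 15.3%). AP-1 words (TGAGTCA and TGACTCA) lay in 6 of 25 MEF-specific regions (24.0%, all regions 31.2%), 1 of 36 ESC-specific (2.78%, all regions 5.70%), 4 of 27 common (14.8%, all regions 5.85%) and 0 of 17 transient regions (all regions 9.71%). Of the 6 MEF-specific regions with an AP-1 word, 3 were at Klf6, 2 at Klf9 and 1 at Klf12. Octamer words (ATGCAAAT) lay in 3 ESC-specific regions, 2 at Klf7 and 1 at Klf12 (8.33%, all regions 4.50%), and in 1 transient region, also at Klf7 (5.88%, all regions 5.97%). SOX words (CCATTGT and CCTTTGT) lay in 6 of 36 ESC-specific regions (16.7%, all regions 20.2%). The ESRRB word TCAAGGTCA lay in 0 of the 105 regions, and in 2.43% of all ESC-specific regions. RefSeq promoter windows, from 250 bp before to 50 bp after a start site, were at hand for 7 of the 8 genes, all but Klf10. KLF words lay in 5 of them (5 matches at Klf3, 3 at Klf7, 3 at Klf13, 2 at Klf11 and 1 at Klf12), and in 29.7% of all 32851 promoters. The Klf12 window, which no list covered, had a GC content of 45.7%, and the other 6 had 58.3% to 77.7%. That Klf12 window lies at the internal start site at 100149764, 134915 bp from the first start site, and does not describe the first one.

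**Figure D5:**
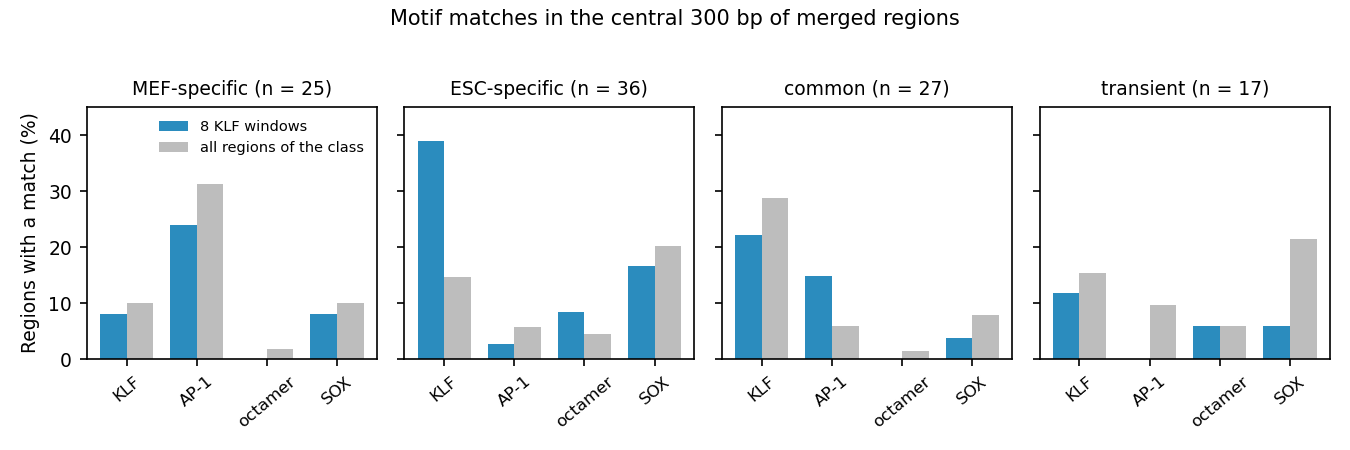
Share of merged regions (y axis, %) with at least 1 match to the KLF, AP-1, octamer and SOX words (x axis) in the central 300 bp, by class, for the 8 KLF windows (blue) and all regions of the class (grey). KLF words in ESC-specific regions stand at 38.9% and 14.7%, and AP-1 words in MEF-specific regions at 24.0% and 31.2%.

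Among the other KLF and SP genes, 18 in all, the lists had 91 peaks in MEFs, 58 on day 5, 80 on day 10 and 114 in ESCs, with more in ESCs than in MEFs at 12 genes, fewer at 4 and equal numbers at 2. A start-site peak in all 4 lists was found at 8 of the 18. Klf2, Klf4 and Klf5, the factors of naive pluripotency, had 6, 1, 7 and 8 peaks, 5, 3, 4 and 6 peaks, and 1, 1, 1 and 9 peaks in the order MEF, day 5, day 10 and ESC. The start site of Klf4 had a peak in MEFs and ESCs and on neither OSKM day, unlike all 8 genes described here. By the shares of its peaks in the 4 lists, each of the 8 genes was compared with the 23 other KLF and SP genes that had at least 4 peaks, taking the sum of the absolute differences of the shares (0 for equal shares). Klf3 and Klf11 were each other's nearest (0.0655), Klf7 had the same shares as Sp9 (0) and Klf13 was equally near to Klf7 and Sp9 (0.0556). Klf9 was nearest to Klf15 (0.0751), Klf10 to Klf16 (0.0966), Klf12 to Klf8 (0.167) and Klf6 to Sp6 (0.213), and Klf5 was the least alike for all 8. The 6 corepressor genes Ctbp1, Ctbp2, Sin3a, Sin3b, Hdac1 and Hdac2 had 35 peaks in MEFs, 26 on day 5, 24 on day 10 and 37 in ESCs, and a start-site peak in every list.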

How the data were processed

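ATAC-seq peak lists of 4 groups (MEF, OSKM day 5, OSKM day 10 and ESC) were analysed, each deposited as 1 list made by the authors from 2 libraries. Per the labels and the methods, the authors mapped reads to mm10 with bowtie2 (version 2.2.0 in the submitters' processing notes), removed reads of low mapping quality and mitochondrial reads and kept uniquely mapped ones. The peak caller and its settings are not given in the sources used here. The authors deposited, for each peak, a fold enrichment over background (a ratio), −log10 p-values (not used here), −log10 q-values (smallest 1.01) and a score, equal to the −log10 q multiplied by 10 and truncated. Peak names were those of replicate 1. The score and the fold therefore probably belong to the whole replicate 1 peak. Depth is unknown, and libraries could not be told apart.

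Peaks within 400 bp were merged over the whole genome. Genes and start sites came from GENCODE mouse release 21, and sequences from GRCm38.p6 and the RefSeq promoter table. Values were computed with Python 3.11 and pysam, and the interval and motif functions were tested on simulated data. No test between groups was possible. Counts were set beside all 21938 protein-coding genes or all 101701 regions. Named peaks were those over a start site and the widest off start sites in each list. Up to 3 regions per gene were also named that had no MEF peak but had peaks in ESCs or on both OSKM days. Other sites are named because of their values. The members, gene lists and motifs were chosen with earlier results of these data known.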

Additional observations from a re-analysis of the deposited data

How the results depend on the processing

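No paired analysis was possible because each group had 1 list, and for the same reason leaving out a replicate in turn was not run. The number of genes with a start-site peak kept within 1.5 times its value in every list under a −log10 q-value of at least 2, equal list length, 500 bp around start sites and protein-coding start sites only. Window size moved the totals most. In the gene bodies alone they were 24 peaks in MEFs, 24 on day 5, 25 on day 10 and 29 in ESCs, with 10 kb flanks 27, 25, 28 and 38, and with 100 kb flanks 81 in MEFs and 95 in ESCs. In the gene bodies there were 9 MEF-specific, 15 ESC-specific, 15 common and 10 transient regions, and with 100 kb flanks 42 MEF-specific and 56 ESC-specific ones. Genes with more peaks in MEFs than in ESCs were 2 in place of 1 in gene bodies, with 10 kb or 100 kb flanks, with a −log10 q-value of at least 2 and at equal list length, the added gene being Klf3, Klf3, Klf7, Klf11 and Klf11 in that order. In gene bodies, 3 genes had more peaks in ESCs than in MEFs and 4 more in ESCs than on day 10. At equal list length, 2 genes had more peaks in MEFs than on day 5, 4 had more in ESCs than on day 10, and 17 regions were common. Without the Klf12 window, chosen after seeing the data, 8 regions were transient. Beyond the number of bp searched and the number of peaks kept, the cause was not tested. Of the values for single genes, 63 moved by more than 1.5 times and 129 did not. Depth limits every absence of a peak, which may be a site below the caller's threshold.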
